A study of Mus musculus with 2 samples.

Results

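The genes described here are 10 markers of the cells of blood vessels, chosen by name among the 32285 genes of the count table. They comprised 6 genes of endothelial cells, which line the vessel, and 4 genes of mural cells, the pericytes and smooth muscle cells that wrap it. Of the endothelial genes, Cldn5 and Slco1a4 were set apart as brain-barrier genes and Flt1, Pecam1, Cdh5 and Kdr as general endothelial genes. The mural genes were Pdgfrb, Rgs5, Kcnj8 and Abcc9. The rule used no measured value, although earlier results of these data were known when it was set, and all 10 genes were found. Brain tissue of C57BL/6 mouse embryos at E18.5, shortly before birth, had been profiled by SPARC-seq, a method that gives each spot of a section a barcode and sequences its RNA as well as its accessible chromatin. The animals were homozygous for CTCF-R567W, an amino acid change in the chromatin protein CTCF introduced with CRISPR/Cas9, and both libraries carried it. There was 1 RNA library and 1 chromatin accessibility library, with no replicate and no control genotype, so every comparison was made between spots of these libraries and none tests the mutation. How many embryos gave the tissue is not given in the sources used here.

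Blood vessels are tubes of endothelial cells held together by adhesion molecules and kept in shape by the mural cells around them. Endothelial cells follow VEGF, the main vessel growth factor, and recruit mural cells by releasing PDGF-B, which the mural receptor Pdgfrb binds. In the brain, endothelial cells also form the blood-brain barrier: they seal their contacts with tight junctions, hold few pores, and carry nutrients through dedicated transporters, while vessels of muscle, glands and other peripheral tissues are more permeable. Muscle and connective tissue beside the brain therefore hold vessels of another type.

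A spot can cover more than 1 cell, and spots were used without their positions on the section. After limits on genes and mitochondrial UMIs, 1992 of 1993 spots were kept, with 8711132 UMIs (unique RNA molecules counted), a median of 4157 UMIs and 21705 chromatin fragments per spot. Neuronal genes were abundant, but the tissue was not brain alone, since 12 skeletal muscle genes were read as well. The spots were ranked by the share of their UMIs from these muscle genes. The top 10% of kept spots, 199 in number, are called muscle-rich, with shares from 1.0% to 4.86%, and the other 1793 spots had a median share of 0.442%. The last spot inside and the first outside this limit both stood at 1.0%, and muscle UMIs occurred in every spot. Barcodes that share a second segment form a strip of the grid, and 6 of the 46 strips with at least 10 kept spots held 191 of the 199 muscle-rich spots. These 6 are called muscle-heavy strips. Muscle-rich spots were deeper, with medians of 4715 against 4077 UMIs and 37680 against 20891 fragments, and all rates below are therefore shares of UMIs or of promoter fragments. All intervals are 95% intervals and cover counting error only. In spots, fewer cells of a type and less RNA per cell cannot be told apart.

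Sequence next to the start sites is shown first because the accessibility values were counted around those sites, over the wider span of 1 kb on either side of the start of the gene model. RefSeq sequence on build GRCm38.p6, from 250 bases before to 50 after the start site, was read for 7 of the 10 genes, and 5 are printed, namely both barrier genes, the VEGF receptor Flt1, and the paired channel genes Kcnj8 and Abcc9, which lie side by side. Capitals mark exact matches, on either strand, to any of 6 motifs: GGGCGG (the GC box), TATAAA (the TATA box), AGGAAG (a core of ETS sites), CCGGAAG (a longer ETS site), AGATAA (a site of GATA factors) and ACAAAG (a site of Sox or Lef factors). No motif contains another. Start sites of RefSeq and of the gene models used for fragments lay 49 bases apart for Slco1a4 and 41 for Abcc9. The windows are chr16:18776597-18776896 (plus strand) for Cldn5, chr6:141856171-141856470 (minus strand) for Slco1a4, chr5:147725962-147726261 (minus strand) for Flt1, chr6:142571565-142571864 (minus strand) for Kcnj8 and chr6:142702225-142702524 (minus strand) for Abcc9.
Cldn5: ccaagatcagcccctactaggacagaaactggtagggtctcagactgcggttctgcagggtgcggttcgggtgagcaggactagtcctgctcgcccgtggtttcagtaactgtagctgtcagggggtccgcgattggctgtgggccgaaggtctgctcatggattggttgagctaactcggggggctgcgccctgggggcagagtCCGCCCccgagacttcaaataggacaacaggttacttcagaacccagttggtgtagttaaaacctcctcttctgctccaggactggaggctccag
Slco1a4: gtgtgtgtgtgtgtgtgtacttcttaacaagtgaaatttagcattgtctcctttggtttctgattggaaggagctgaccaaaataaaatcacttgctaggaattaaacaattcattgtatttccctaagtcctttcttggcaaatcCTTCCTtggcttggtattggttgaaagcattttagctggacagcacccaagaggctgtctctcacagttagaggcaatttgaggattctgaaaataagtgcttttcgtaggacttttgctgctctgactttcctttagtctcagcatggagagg
Flt1: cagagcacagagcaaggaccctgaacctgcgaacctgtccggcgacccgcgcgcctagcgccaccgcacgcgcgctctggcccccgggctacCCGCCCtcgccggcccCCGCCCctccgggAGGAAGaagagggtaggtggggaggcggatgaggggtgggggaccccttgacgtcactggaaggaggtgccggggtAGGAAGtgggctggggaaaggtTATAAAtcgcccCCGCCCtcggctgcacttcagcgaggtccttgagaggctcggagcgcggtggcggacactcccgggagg
Kcnj8: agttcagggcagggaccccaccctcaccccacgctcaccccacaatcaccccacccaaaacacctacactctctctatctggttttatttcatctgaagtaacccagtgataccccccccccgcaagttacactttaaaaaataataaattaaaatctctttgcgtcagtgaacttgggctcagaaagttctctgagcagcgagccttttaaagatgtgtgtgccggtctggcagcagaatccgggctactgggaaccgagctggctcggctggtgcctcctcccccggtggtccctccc
Abcc9: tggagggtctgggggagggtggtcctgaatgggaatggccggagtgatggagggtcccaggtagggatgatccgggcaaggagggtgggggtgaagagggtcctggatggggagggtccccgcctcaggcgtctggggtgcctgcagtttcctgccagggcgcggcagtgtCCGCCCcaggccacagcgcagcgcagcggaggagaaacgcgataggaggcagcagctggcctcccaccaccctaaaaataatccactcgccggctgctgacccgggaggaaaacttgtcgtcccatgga

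The promoters differed in base composition. Flt1 was richest in G and C (70.7%, with 29 CpG dinucleotides) and Slco1a4 poorest (40.7%, with 1 CpG), around a median of 52.7% and 7 CpG over 32851 promoters of the same length. Cldn5 had 58.3% and 12 CpG, Kdr 60.7% and 19, Abcc9 65.7% and 16, Kcnj8 53.3% and 9, and Rgs5 52.3% and 6. GGGCGG occurred in 4 of the 7 promoters (Cldn5, Flt1, Kdr and Abcc9) and in 35.7% of all promoters. AGGAAG occurred in 2 (Slco1a4 and Flt1, against 35.4% of all), TATAAA in 1 (Flt1, against 13.6%) and AGATAA in 1 (Rgs5, against 11.2%). CCGGAAG was in none of the 7, against 8.86% of all promoters, and so was ACAAAG, against 18.7%. Kcnj8 held no match to any of the 6. The only TATAAA began 31 bases before the start site of Flt1. These matches describe the letters alone.

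Vessel RNA was sparse but widespread. Together the 10 genes had 3092 UMIs, or 355 per 1000000 UMIs (CPM; interval 342 to 368), and 1449 of the 1992 spots (72.7%) held at least 1 of them. The endothelial genes accounted for 2157 UMIs in 1243 spots (62.4%, 60.2% to 64.5%) and the mural genes for 935 UMIs in 710 spots (35.6%, 33.5% to 37.8%). No spot held more than 9 UMIs of the 10 genes, so single spots say little and spots were summed.

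Of the barrier genes, Cldn5 (chr16:18776847-18778262, GRCm38) encodes the tight-junction protein that seals contacts between brain endothelial cells and had 613 UMIs (70.4 CPM, 64.9 to 76.2) in 498 spots. Slco1a4 (chr6:141805440-141856199), a transporter of organic anions that is typical of brain vessels, had 9 UMIs in 9 spots (1.03 CPM, 0.472 to 1.96). Its neighbours in the Slco1a family on chromosome 6 were as rare, with 7 UMIs for Slco1a1, 7 for Slco1a6 and 15 for Slco1a5, and reads of these close copies may be split between them. The barrier pair was thus carried by Cldn5 in nearly all its UMIs.

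Of the general endothelial genes, Flt1 (chr5:147561604-147726011), VEGF receptor 1, which binds and holds back VEGF, led with 745 UMIs (85.5 CPM, 79.5 to 91.9). Pecam1 (chr11:106654217-106750628), an adhesion molecule of endothelial contacts, had 368 UMIs (42.2 CPM, 38.0 to 46.8). Kdr (chr5:75932827-75978458), VEGF receptor 2 and the main signalling receptor, had 303 UMIs (34.8 CPM, 31.0 to 38.9). Cdh5 (chr8:104101625-104144511), the cadherin of endothelial junctions, had 119 (13.7 CPM, 11.3 to 16.3).

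Of the mural genes, Rgs5 (chr1:169655501-169695813), a regulator of G protein signalling and a classical pericyte marker, was highest with 424 UMIs (48.7 CPM, 44.2 to 53.5). Pdgfrb, the receptor for PDGF-B, which fibroblasts also make, had 308 UMIs (35.4 CPM, 31.5 to 39.5). Kcnj8 (chr6:142564837-142571614) and Abcc9 (chr6:142587862-142702315) encode the pore and the regulatory subunit of the same ATP-sensitive potassium channel, and their spans lie on the minus strand of chromosome 6 with 16.2 kb between them. Abcc9 had 144 UMIs (16.5 CPM, 13.9 to 19.5) and Kcnj8 59 UMIs (6.77 CPM, 5.16 to 8.74).

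On the CPM scale the order was Flt1, Cldn5, Rgs5, Pecam1, Pdgfrb, Kdr, Abcc9, Cdh5, Kcnj8 and Slco1a4. Rgs5 and Pecam1 (ratio 1.15, interval 1.0 to 1.33), Pdgfrb and Kdr (1.02, 0.865 to 1.20) and Abcc9 and Cdh5 (1.21, 0.943 to 1.56) were neighbours that did not differ beyond counting error. Per kilobase of gene span, used here as a second scale, Cldn5 stood far apart with 49.7 CPM per kb. This value was 41.2 times that of the next gene, Rgs5 (interval 36.3 to 46.7). In CPM Cldn5 had 1.45 times the level of Rgs5 (1.28 to 1.64). Most of the larger gap thus came from gene span, 1.42 kb for Cldn5 and 40.3 kb for Rgs5, not from UMIs. The Cldn5 gene spans 1.42 kb against 164 kb for Flt1, and most of that length in Flt1 is intron. Rgs5 (1.21 CPM per kb), Kcnj8 (0.999), Pdgfrb (0.886) and Kdr (0.762) followed, each within counting error of the next. Flt1 (0.520), Pecam1 (0.438), Cdh5 (0.319), Abcc9 (0.144) and Slco1a4 (0.0204 CPM per kb) came after, each step beyond counting error. This order reflects gene span, introns included, as well as UMIs, so its steps are not steps in RNA level alone.

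The genes were then summed over the 46 strips, which held 12 to 50 kept spots each. The level of Cldn5 ran from 31.9 CPM in the lowest strip over a median of 65.1 to 138 in the highest. For Flt1 these values were 31.9, 84.9 and 184 CPM, and for Kdr 10.6, 28.9 and 95.7 CPM. Each of these genes was found in every strip. Among the mural genes, Pdgfrb ran from 5.17 over 34.4 to 87.8 CPM and Rgs5 from 0 over 50.2 to 101 CPM. Kcnj8 was at 0 in 18 strips and Slco1a4 in 39. In the 6 muscle-heavy strips Cldn5 lay between 45.8 and 101 CPM, inside the range of the other 40 strips, and so did each of the other genes.

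**Figure D1:**
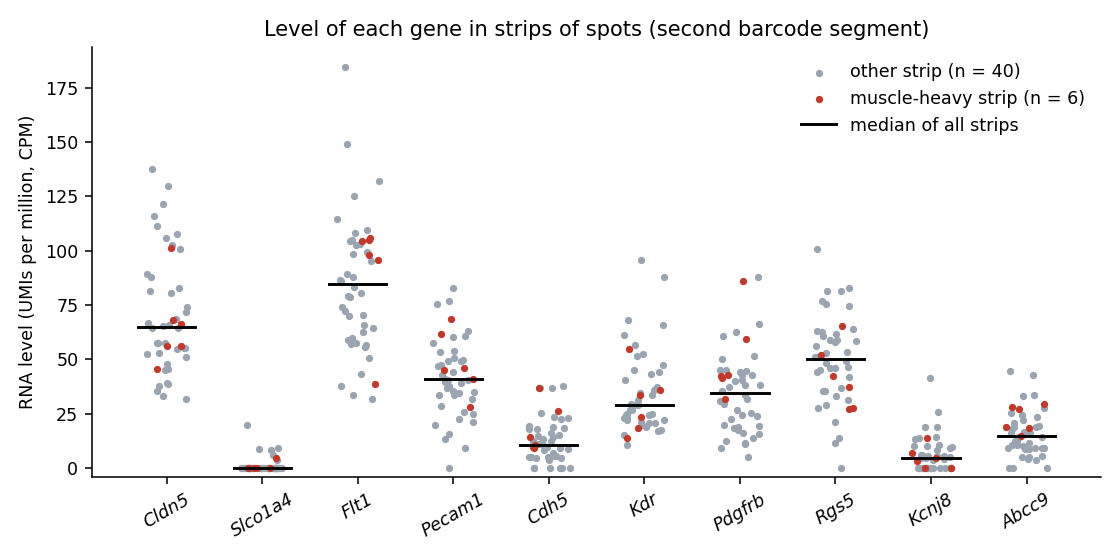
RNA level in CPM (vertical axis) of each gene (horizontal axis) in 46 strips of spots that share a second barcode segment. Each point is a strip, red for the 6 muscle-heavy strips and grey for the other 40, and the bar is the median of all strips. Cldn5 and Flt1 were highest, with medians of 65.1 and 84.9 CPM, and the red points lie among the grey ones for every gene.

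Co-variation between the genes was weak. Across the 1992 spots, which share a library, Pearson correlations of the 45 pairs of genes lay between -0.0408 and 0.0866 (median 0.00772). Of the 498 spots with Cldn5, 167 also held Flt1, 92 Pecam1 and 113 Rgs5. Over the 46 strips the pairs ran from -0.320 to 0.357 (median 0.0694, log2 of CPM + 20), and over 50 strips by the first segment from -0.239 to 0.284 (median 0.00897). The summed endothelial and mural genes correlated at 0.164 over the 46 strips and 0.136 over the 50, and the barrier and general endothelial genes at -0.0872 and -0.103. Correlations this weak in counts this sparse are no finding. The genes most like the endothelial sum, by the lower of their correlations over both kinds of strips among 7925 genes with at least 200 UMIs, were Ppib (0.346), Enpp2 (0.311), Nucks1 (0.294), Ildr2 (0.292) and Prkch (0.287). Those most like the mural sum were Clic4 (0.426), Rpl11 (0.364), Mest (0.351), Fam89b (0.345) and Ifitm2 (0.342). Of these, only Enpp2, which choroid plexus makes, is on a list used here, and none is on a vessel list. Just below them, Slc7a1 of the longer brain-barrier list ranked 6 for the endothelial sum (0.281). Ets1 of the longer general endothelial list ranked 8 for the mural sum (0.325). As the highest of 7925 genes, with no chance level set, these values are no finding either.

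Accessibility was counted as fragments that overlap 1 kb on either side of the start site. Pdgfrb had most, with 225 fragments, followed by Cldn5 with 187, Kdr with 175, Flt1 with 149, Cdh5 with 124, Kcnj8 with 120, Abcc9 with 97, Rgs5 with 95, Slco1a4 with 33 and Pecam1 with 29. Pdgfrb stood at percentile 61.6 of protein-coding genes and Pecam1 at 15.5, whereas by UMIs Pecam1 stood at percentile 76.3. The order of accessibility was therefore not that of RNA: Pecam1, with the fourth most UMIs, had the fewest fragments. Fragments were counted at 1 start site per gene, so any start site of Pecam1 outside this window was missed.

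Insertions, the fragment ends where the transposase cut, gathered at the start site for some genes and not for others. Within 300 bp of the start site Kdr had 7.01 times and Flt1 5.04 times as many insertions per 100 bp as between 1000 and 2000 bp away. The ratio was 3.79 for Pdgfrb, 3.68 for Kcnj8, 3.49 for Abcc9, 2.57 for Cldn5 and 2.5 for Cdh5. It was lower for Rgs5 (1.88), Slco1a4 (1.69) and Pecam1 (1.16). In the authors' peak list, peaks overlapped the 1 kb windows of Flt1 (2 peaks), Kdr, Pdgfrb, Rgs5, Kcnj8 and Abcc9 (1 each), and none overlapped those of Cldn5, Slco1a4, Pecam1 and Cdh5. No peak lay within 10 kb of the span of Slco1a4, and the only peak of Cldn5 (chr16:18767828-18768656) was 8191 bp from its start site.

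**Figure D2:**
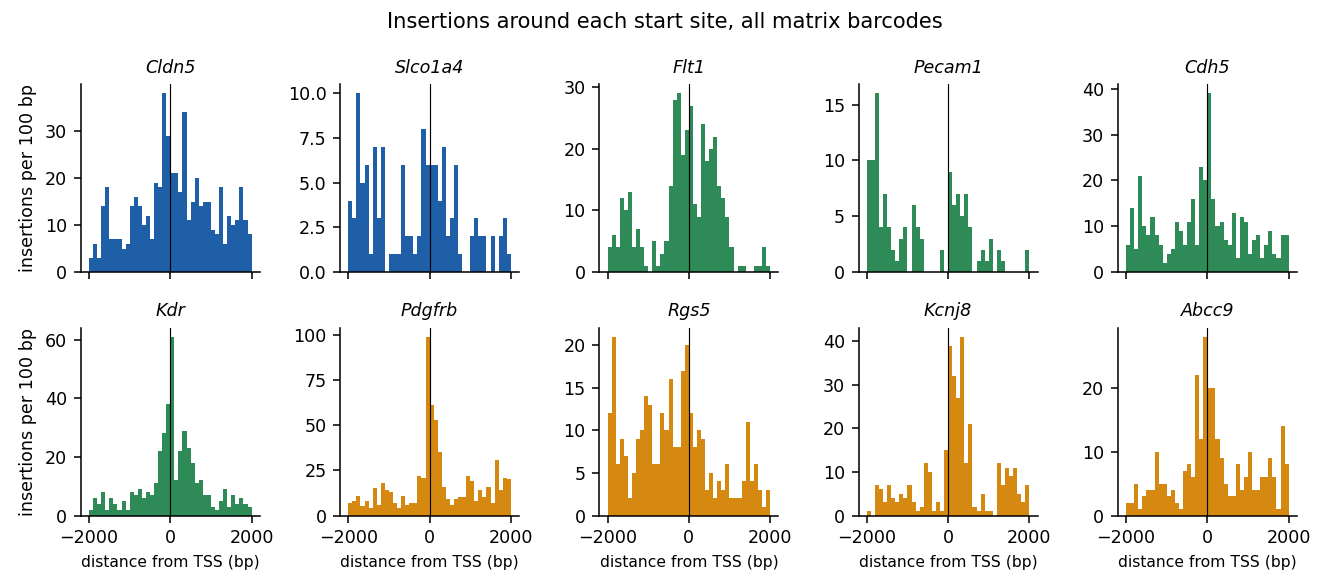
Insertions per 100 bp (vertical axis, a separate scale for each gene) by distance from the start site in bp (horizontal axis, upstream to the left), summed over all 1993 barcodes of the matrix. Blue marks barrier, green general endothelial and orange mural genes. Kdr reached 61 and Pdgfrb 99 insertions in their highest bin beside the start site, whereas the highest bin of Pecam1 (16) lay 1700 to 1800 bp upstream.

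The brain-barrier genes were next set against the general vessel genes in muscle-rich spots. Cldn5 and Slco1a4 together had 57.5 CPM in muscle-rich spots (43.5 to 74.5; 57 UMIs) and 73.2 CPM in other spots (67.3 to 79.5; 565 UMIs), a ratio of 0.785 (0.587 to 1.03). The general endothelial genes had 195 CPM (168 to 224; 193 UMIs) and 174 CPM (165 to 183; 1342 UMIs), a ratio of 1.12 (0.958 to 1.30). Set against each other within the same spots, barrier over general genes gave a ratio of ratios of 0.701 (0.504 to 0.964). Barrier genes thus held a smaller share of endothelial UMIs in muscle-rich spots, by more than counting error, in libraries without a replicate. With the muscle-heavy strips numbered 1 to 6 from most to least muscle, the interval reached past 1 without strip 2 (0.742, 0.511 to 1.06), strip 4 (0.754, 0.521 to 1.07) or strip 5 (0.754, 0.539 to 1.04). It also did so with the top 5% of spots called muscle-rich (0.795, 0.506 to 1.22), against the other spots of the same 6 strips (0.690, 0.418 to 1.15), and without the spots richest in connective tissue genes (0.753, 0.493 to 1.13).

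The ratio rested on Cldn5. Cldn5 had 56 UMIs in muscle-rich and 557 in other spots, a CPM ratio of 0.782 (0.584 to 1.03), and Slco1a4 1 and 8, too few to read. Each general endothelial gene had a ratio above 1, with Flt1 at 1.15 (0.919 to 1.43), Pecam1 at 1.08 (0.775 to 1.48), Cdh5 at 1.30 (0.727 to 2.18) and Kdr at 1.02 (0.693 to 1.45). Every one of these intervals included 1. Against other spots of the same muscle-heavy strips the Kdr ratio was 1.70, past the upper limit of its interval above. Kdr stood there at 35.0 CPM (24.2 to 48.9; 34 UMIs) and 20.6 CPM (10.3 to 36.9; 11 UMIs). Over 5 equal groups of the spots by muscle share, the barrier genes' share of endothelial UMIs was 24.9% (21% to 29.2%) in the group with most muscle, then 27.6%, 28.5% and 32.9%, and 30.3% (25.6% to 35.3%) in the group with least muscle. Neighbouring groups overlapped within their intervals.

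By strip, the barrier share was 26.7%, 21.1%, 32.8%, 17.7%, 24.6% and 38.1% in the 6 muscle-heavy strips, with a median of 25.6%. In the other 40 strips it ran from 15.2% over a median of 28.2% to 61.5%. Of these 40, 6 lay above the highest and 4 below the lowest muscle-heavy strip, so the strips overlapped almost entirely. Single strips held 14 to 22 UMIs of Cldn5 on the muscle-heavy side, and their intervals were wide.

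**Figure D3:**
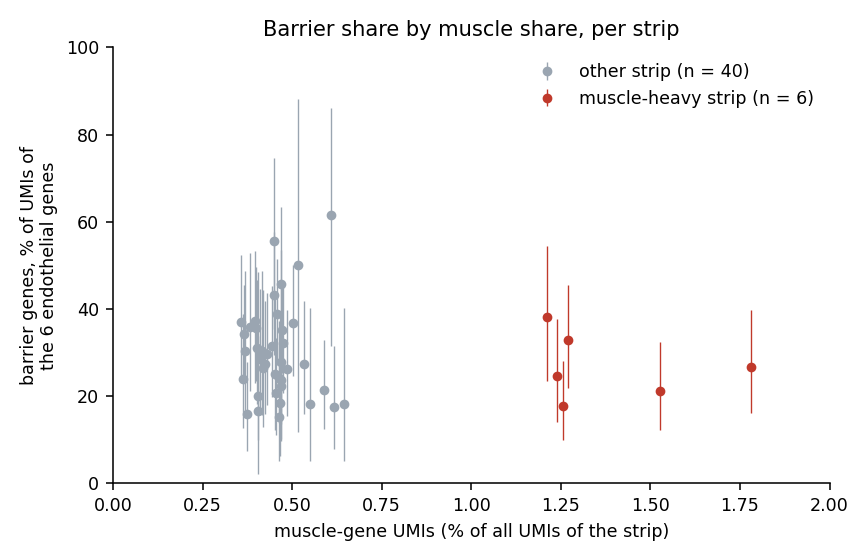
Share of the UMIs of the 6 endothelial genes that came from Cldn5 and Slco1a4 (vertical axis, %) by the share of muscle-gene UMIs (horizontal axis, %) in 46 strips. Points are strips, red for the 6 muscle-heavy and grey for the other 40, and lines are exact binomial 95% intervals. The red points (17.7% to 38.1%) lie within the range of the grey ones (15.2% to 61.5%).

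At promoters no such difference was detectable at this depth. Barrier promoters held 38 fragments in muscle-rich and 182 in other spots, a ratio of their shares of promoter fragments of 0.984 (0.674 to 1.40), and general endothelial promoters 93 and 384, a ratio of 1.14 (0.900 to 1.43). The ratio of ratios was 0.862 (0.552 to 1.33), an interval that holds both 1 and the value found in RNA, and it turned to 1.33 (0.616 to 3.02) against other spots of the same strips. Cldn5 alone had 34 and 153 fragments, a ratio of 1.05 (0.700 to 1.53).

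Of the mural genes, Pdgfrb alone had intervals above 1 in RNA and at the promoter, though not under each alternative. In the 6 muscle-heavy strips Pdgfrb stood at 59.3, 86.2, 41.4, 42.5, 42.7 and 31.6 CPM, and 20 of the 40 other strips reached the lowest of these. Pdgfrb had 57.5 CPM in muscle-rich spots (43.5 to 74.5; 57 UMIs) and 32.5 CPM in other spots (28.6 to 36.8; 251 UMIs), a ratio of 1.77 (1.30 to 2.36). The RNA ratio was 1.49 without strip 2, 1.31 (0.816 to 2.0) with the top 5% of spots and 1.65 (0.965 to 2.93) against other spots of the same strips. Its promoter held 77 and 148 fragments, a ratio of 2.45 (1.84 to 3.25), which was 1.30 (0.812 to 1.99) with the top 5% of spots and 1.13 (0.734 to 1.79) against the same strips. Rgs5, the mural gene with most UMIs, did not follow over all spots. Its ratio was 0.947 (0.682 to 1.29; 46 and 378 UMIs) in RNA and 0.747 (0.382 to 1.35; 13 and 82 fragments) at the promoter. Against other spots of the same strips both Rgs5 ratios moved outside these intervals. They were 1.33 in RNA (46 and 19 UMIs) and 0.353 at the promoter (12 and 15 fragments). In RNA the levels there were 47.4 CPM (34.7 to 63.2) in muscle-rich and 35.6 CPM (21.5 to 55.7) in other spots. The promoter rates were 11.4 (5.87 to 19.8) and 32.2 (18.0 to 53.0), with intervals that barely overlapped. Overlap of level intervals does not decide whether a ratio differs from 1, and intervals of these Rgs5 ratios are not given here. Over all 4 mural genes the ratio was 1.25 (1.03 to 1.5) in RNA and 1.52 (1.24 to 1.86) at promoters. Pdgfrb gave 57 of the 129 mural UMIs in muscle-rich spots and 251 of the 806 in other spots. At promoters it gave 77 of 131 and 148 of 406 fragments, so both sums leaned on Pdgfrb. The mural promoter value was 1.02 with the top 5% of spots and turned to 0.844 (0.625 to 1.15) against other spots of the same strips.

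The channel subunits lay on different sides of 1 in RNA, on few UMIs. Kcnj8 had 2 UMIs in muscle-rich and 57 in other spots, a ratio of 0.273 (0.0323 to 1.03), and Abcc9 24 and 120, a ratio of 1.56 (0.960 to 2.43). Kcnj8 over Abcc9 gave a ratio of ratios of 0.175 (0.0196 to 0.752). At the promoters the values were 1.37 for Kcnj8 (0.856 to 2.12; 27 and 93 fragments) and 0.795 for Abcc9 (0.416 to 1.41; 14 and 83). With fragments under 150 bp they were 1.27 and 1.23, and with a window of 2 kb their order turned, at 1.12 and 1.38. The promoter ratio of ratios, in the 1 kb window, was 1.72 (0.806 to 3.80). The Kcnj8 value was not stable: it was 0.766 (0.346 to 1.53; 10 and 49 UMIs) with the top 20% of spots, 0.569 with the top 5%, and 0.181 or 0.145 without strip 4 or strip 5. Abcc9 was 1.30 with the top 20% of spots, 1.37 against the 50% of spots with least muscle, 1.20 against the same strips, and 1.43, 1.39 or 1.47 without strip 1, 4 or 6. This contrast of the pair was singled out after its values were seen.

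**Figure D4:**
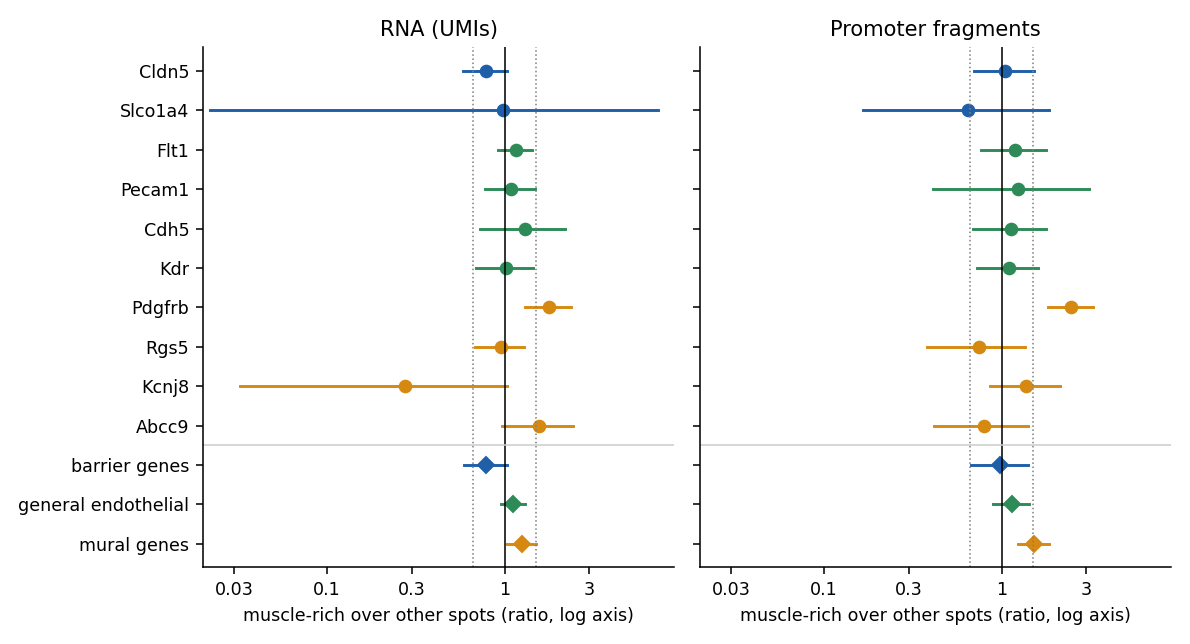
Ratio of muscle-rich to other spots (horizontal log axis) for each gene and for the 3 groups, in RNA (left) and promoter fragments (right). Points are ratios of rates, lines are 95% counting intervals, the solid line marks 1 and the dotted lines a fold of 1.5 in either direction. Pdgfrb lies right of 1 in both panels, at 1.77 and 2.45, and the general endothelial genes lie near 1 in both.

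A gene was called higher or lower in muscle-rich spots at a ratio of at least 1.5 or at most 0.667, given at least 20 UMIs or promoter fragments, as a description without a test. In RNA 9 of the 10 genes reached 20 UMIs, 2 of them (Pdgfrb and Abcc9) were called higher and 1 (Kcnj8) lower. Of all 15739 genes tested, 14.1% were called higher and 12.4% lower. At promoters all 10 were tested, Pdgfrb was called higher and Slco1a4 (0.650, 0.166 to 1.85; 4 and 29 fragments) lower, against 10.5% and 17.9% of 28563 genes. The median ratio of the genes was 1.08 in RNA and 1.11 at promoters, beside 0.973 and 0.975 over all genes tested. With so few genes, these counts do not stand apart from the shares of all genes.

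Over all spots, connective tissue RNA was higher in muscle-rich spots, though not within the muscle-heavy strips (values below). A list of 8 connective tissue genes (collagens, decorin and others) had a summed RNA ratio of 2.43 (2.34 to 2.53) in muscle-rich spots, with Col1a1 at 2.49 and Col1a2 at 2.34, and 88 of the 199 muscle-rich spots were also among the top 10% by connective tissue UMIs. In those connective-rich spots Pdgfrb was at 1.94 (1.41 to 2.63) in RNA and 3.03 (2.26 to 4.03) at the promoter, and Cldn5 at 0.795 (0.575 to 1.07) in RNA. Of the general endothelial genes there, Kdr was at 0.582 (0.335 to 0.949), Flt1 at 1.20 (0.937 to 1.51), Pecam1 at 1.40 (1.004 to 1.91) and Cdh5 at 1.41 (0.764 to 2.44). Barrier over general genes gave 0.707 (0.492 to 1.001), and 0.782 (0.471 to 1.26) without muscle-rich spots on either side. Without muscle-rich spots on either side, connective-rich spots still had a Pdgfrb ratio of 1.84 (1.13 to 2.85) in RNA and 2.40 (1.47 to 3.76) at the promoter. There the promoter of Kcnj8 was at 2.71 (1.47 to 4.68), Abcc9 at 1.78 (0.822 to 3.47) and Rgs5 at 0.846 (0.267 to 2.06). Conversely, without connective-rich spots the Pdgfrb ratio of muscle-rich spots was 1.58 (1.03 to 2.34) in RNA and 1.68 (1.06 to 2.58) at the promoter. The part of connective tissue cells in the values of Pdgfrb was not tested.

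Summed over spots, accessibility of the Pdgfrb promoter was high on both sides of the muscle-heavy strips, in their muscle-rich and in their other spots. Per 1000000 promoter fragments it stood at 72.8 (57.5 to 91.0) in the 191 muscle-rich spots of the muscle-heavy strips, at 64.3 (43.4 to 91.8) in the 88 other spots of the same strips, and at 25.4 (21 to 30.4) in all 1713 spots elsewhere. Connective tissue RNA was also higher in both sets of spots of these strips than elsewhere, with 3326, 3480 and 1211 CPM, though not highest in the muscle-rich ones. Pdgfrb RNA stood at 58.7 CPM (44.4 to 76.0; 57 UMIs), 35.6 CPM (21.5 to 55.7; 19 UMIs) and 32.2 CPM (28.2 to 36.6; 232 UMIs), and the interval of the middle value overlapped both others. Over the 6 muscle-heavy strips the Pdgfrb promoter ranged from 45.2 to 93.3 on this scale, and 5 of the 40 other strips reached the lowest of these. Fragments shorter than 150 bp were 55.2% of all in muscle-rich and 46.7% in other spots, and the part of this difference was not tested. Counted from such short fragments alone, the Pdgfrb promoter ratio was 2.22 (1.5 to 3.23).

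In the top 10% of spots by 8 genes of pituitary hormones and their regulators, the barrier genes were at 1.10 (0.809 to 1.47) and the general endothelial genes at 1.13 (0.936 to 1.35), with a ratio of ratios of 0.973 (0.680 to 1.38). The list was sparse, with Pomc (849 UMIs over all kept spots) and Gh (613) most abundant. Whether these spots are pituitary was not tested, so the values do not describe its vessels, which are open to hormones. Spots rich in the 8 genes had intervals that included 1 for the barrier, general endothelial and mural groups, in RNA and at promoters. Single promoters had intervals above 1 there, namely Cdh5 (1.90, 1.18 to 2.98) and Kcnj8 (1.79, 1.08 to 2.84), as had all 10 promoters together (1.21, 1.03 to 1.43).

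Longer lists put the 10 genes beside others of the same vessels, and their counts are to be read against the shares over all genes, 14.1% higher and 12.4% lower in RNA and 10.5% and 17.9% at promoters. Of 19 further brain-barrier genes, 18 could be tested, with 2 higher, 5 lower and a median ratio of 0.836, while their sum had a ratio of 0.958 (0.883 to 1.04). Promoters of the 19 gave 2 higher and 0 lower, with a median of 1.11. Mfsd2a, the lipid transporter that keeps the barrier tight, was at 0.481 (0.172 to 1.09), Abcb1a, the drug efflux pump, at 0.432 (0.0504 to 1.68) from 2 and 36 UMIs, Lsr, a protein of tricellular junctions, at 0.599 (0.252 to 1.22) and Axin2, a target of Wnt signalling, at 0.644 (0.336 to 1.13). Sox17, a transcription factor of arterial cells, had 0 UMIs in muscle-rich and 20 in other spots (upper limit of the ratio 1.58). The intervals of all 5 lower genes of this list thus included 1. The lactate transporter Slc16a1 (2.39, 1.37 to 4.0) and Itm2a (2.44, 1.92 to 3.08) went the other way, and both are also made outside vessels. Which cells made the RNA of the lower and of the higher genes was not tested. The list's most abundant genes, Spock2 and Slc7a1, were at 0.780 and 0.891.

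Of 22 further general endothelial genes, 20 could be tested, with 4 higher, 2 lower and a median ratio of 1.27. Their sum had a ratio of 1.34 (1.21 to 1.48). Eng, a co-receptor for TGF-beta, was at 1.96 (1.51 to 2.53), Ets1, a transcription factor, at 2.21 (1.59 to 3.02), S1pr1, a receptor for sphingosine phosphate, at 1.56 and Clec14a at 2.16. Ecscr (0.453) and Tal1 (0.512) were lower, and Egfl7, the most abundant of the list, was at 1.45 (1.10 to 1.88). Promoters of 7 of the 22 were called higher and 1 lower, with Eng at 2.51.

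Of 12 genes of peripheral, fenestrated or lymphatic vessels, 11 could be tested, with 7 higher, 0 lower and a median ratio of 1.71. Their sum had a lower ratio of 1.35 (1.17 to 1.54). The higher genes were Fabp4 (3.93, 2.72 to 5.62) and Cd36 (3.41, 2.18 to 5.24), which carry fatty acids in muscle capillaries and fat tissue, Flt4 (2.59), VEGF receptor 3 of lymphatic vessels, and Plvap (1.95, 1.05 to 3.41), which forms the diaphragms of fenestrae. Aqp1 (1.95), Lyve1 (1.71) and Pdpn (1.53) completed them, and Prox1, the list's most abundant gene, which neurons also make, was at 0.685. Aqp1 is also on the choroid plexus list, and which cells made the RNA of the higher genes was not tested. At promoters the same list gave 3 higher and 1 lower of 12, with a median of 1.18. The lower one was Cd36, at 0.362 (0.0417 to 1.45) from 2 and 26 fragments.

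Of 15 further mural genes, 13 could be tested, with 4 higher, 0 lower and a median ratio of 1.33. Their sum had a ratio of 1.30 (1.20 to 1.40). Acta2, the actin of smooth muscle, was at 1.98 (1.26 to 3.02), Cspg4, the NG2 proteoglycan of pericytes, at 1.53 (1.15 to 2.02), Ndufa4l2 at 1.67 and Ifitm1 at 2.40. Ebf1 and Vtn, the most abundant, were at 1.33 (1.20 to 1.48) and 0.709 (0.506 to 0.970). Promoters of 7 of the 15 were called higher and none lower. Among 20 ligands and co-receptors of vessel growth, 19 could be tested, with 4 higher, 1 lower and a median of 0.991. Their sum had a ratio of 1.03 (0.958 to 1.11). Pgf, a VEGF-family ligand of Flt1, was at 2.52 (1.20 to 4.95) and the Notch ligand Jag1 at 1.58. The barrier signalling genes Adgra2 and Fzd4 were at 1.63 and 1.76, and Angpt2, a Tek ligand, at 0.436 (0.172 to 0.925). Nrp1 and Nrp2, co-receptors of VEGF, were at 0.976 and 0.991. Several of these genes are also made by connective tissue or neurons, and the neuron list had a summed ratio of 0.679 (0.652 to 0.707).

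**Figure D5:**
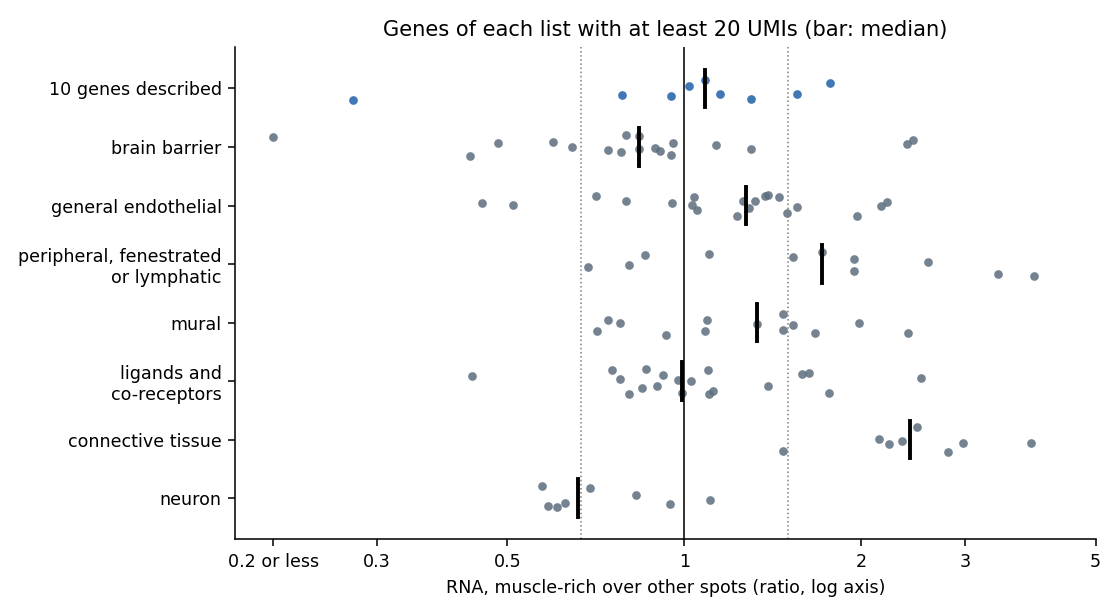
RNA ratio of muscle-rich to other spots (horizontal log axis) for the genes of each list with at least 20 UMIs (rows), 1 point per gene, with a bar at the median and dotted lines at a fold of 1.5 in either direction; Sox17, at 0, is drawn at 0.2, and the muscle list, which ranks the spots, is not drawn. Medians of the lists drawn run from 0.658 for neuronal genes over 0.836 for brain-barrier genes, 1.08 for the 10 genes and 1.71 for genes of peripheral, fenestrated or lymphatic vessels to 2.41 for connective tissue genes.

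RNA and accessibility were set side by side over the 46 strips, which share spots, depth and library. Pearson correlations of the 2 rates were 0.373 for Pdgfrb, 0.256 for Flt1 and 0.156 for Pecam1, and between -0.160 and 0.0824 for the other genes. In or within 10 kb of the genes lay 45 peaks, of which 7 overlapped the promoter windows. In Kdr, a peak 23629 bp from the start site (chr5:75954021-75954829) had 0 cut sites in muscle-rich and 61 in other spots (upper limit of the ratio 0.301). Another at 44182 bp (chr5:75933445-75934276) had 50 and 121, a ratio of 2.0 (1.41 to 2.80). In Flt1, peaks 98337 bp (chr5:147626759-147627674; 10 and 188 cut sites) and 141729 bp (chr5:147583385-147584282; 6 and 115) from the start site were at 0.257 and 0.252. The peak over the Flt1 start site (34 and 103) was at 1.59 (1.05 to 2.37) and another 135571 bp away (41 and 106) at 1.87 (1.27 to 2.70). In Pdgfrb, the peak over the start site had 115 and 215 cut sites, a ratio of 2.58 (2.04 to 3.25), and the next peak, 7299 bp away, 20 and 228, a ratio of 0.424 (0.254 to 0.670). These peaks were picked after their values were seen, and no link to the gene around them was tested. The share of all peaks past the fold was not worked out, so none stands beside these values.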

How the data were processed

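SPARC-seq libraries were analysed from the files as deposited. The authors deposited a matrix with raw counts of UMIs per gene and of cut sites per peak for each barcode, and a list of chromatin fragments with counts of the read pairs behind each. Per the file headers, both were made with cellranger-arc 2.0.1 on an mm10 (GRCm38) reference, and the submitters' processing notes also name Seurat 4.0. How barcodes were filtered is not given in the sources used here. No normalization had been applied.

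Filters were set for this work: a spot needed 500 to 6000 detected genes and no more than 20% of UMIs from mitochondria, which left 1992 of 1993. Barcode segments, not positions, defined strips. RNA rates are UMIs per 1000000 UMIs, and promoter rates are fragments overlapping 1 kb on either side of the start site per 1000000 such fragments over all genes. Group sums were compared as ratios of rates with conditional binomial intervals, levels have exact Poisson intervals and shares exact Clopper-Pearson intervals, all at 95%. UMIs count molecules, but fragments and UMIs of a spot share cells, so intervals cover counting error only. The labels give no replicates, so no test across samples was possible and none was made. A gene was called at a fold of 1.5 with at least 20 counts. No doublet caller was run, since a spot may hold several cells. Correlations over strips used log2 of CPM + 20.

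The 10 genes and all lists were chosen with earlier results of these data known. Named genes were the 10 genes, the 5 genes most like each group sum, the Slco1a family, and in the vessel lists the 2 genes with most UMIs and those past the fold; other lists are given by their sums or counts. One gene of the mural list is not reported here and was left out of that list's counts. Alternatives changed the share of spots called muscle-rich (5%, 20%), the muscle list, the comparison spots, the filters, the window (500 bp, 2 kb), the fragment size (under 150 bp), the denominators, the pseudocount and the strips. Python 3.11.15, numpy 2.4.6, scipy 1.17.1, pandas 2.3.3 and matplotlib 3.10.9 were used, and the scripts were tested on simulated data.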

Additional observations from a re-analysis of the deposited data

Results flagged for a closer look

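The fragment list held 507 barcodes that have no column in the count matrix, with 5833396 fragments and a median of 5128 fragments each. They carried 126 promoter fragments of the 10 genes, 247 per 1000000 promoter fragments (206 to 294), which was 1.23 times (1.02 to 1.48) the rate of the kept spots, where 1234 such fragments made a rate of 200. They stand out because no RNA count accompanies them, and they entered no comparison.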

How the results depend on the processing

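No analysis paired by replicate was possible because there was 1 library per assay. Of 554 values under alternative settings, 529 stayed within the counting interval of the reported value (within 0.1 for correlations), 23 moved outside it and 2 called values turned to the other side of 1. Of the 500 that are ratios, 61 lay on the other side of 1. These counts do not measure stability, since many alternatives reuse most of the same spots and sparse genes have wide intervals. The Kcnj8 RNA ratio, for one, ran from 0.145 to 0.766 with all 16 alternatives inside its interval. The called values that turned were the mural promoter ratio, 0.844 (0.625 to 1.15) against other spots of the same muscle-heavy strips where it was 1.52 over all spots, and the Slco1a4 promoter ratio, 1.09 with the top 5% of spots where it was 0.650. With the top 5% of spots the mural promoter ratio was 1.02, and against the same strips barrier over general promoters gave 1.33. The summed level of the 10 genes was 380 CPM with muscle, mitochondrial and Gm42418 UMIs left out of the denominator, and 55.0 CPM per kb as a sum of levels per kb of span. The Pdgfrb promoter ratio was 1.30 with the top 5% of spots and 1.13 (0.734 to 1.79) against the same strips. Causes were not tested.

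Leaving out each muscle-heavy strip gave RNA ratios of 0.690 to 0.846 for barrier, 1.07 to 1.18 for general endothelial and 1.18 to 1.34 for mural genes, and 0.625 to 0.754 for barrier over general genes. For promoters these ranges were 0.809 to 1.23, 1.03 to 1.20, 1.41 to 1.65 and 0.675 to 1.04. The comparison without connective-rich spots was chosen after seeing the data. Depth limits single strips, which held few UMIs of any gene, and leaves no readable RNA ratio for Slco1a4 (9 UMIs) and a wide one for Kcnj8 (59 UMIs).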

Other observations

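Across all 46 strips the barrier genes and the 12 genes of peripheral, fenestrated or lymphatic vessels correlated at 0.270, and the general endothelial genes with the same list at 0.233. Over the 50 strips by the first segment these values were 0.112 and 0.0333. With the longer brain-barrier list, the barrier genes correlated at -0.0513 over the 46 strips and 0.0842 over the 50, and the general endothelial genes at 0.317 and -0.0191. The strips share a library, and correlations of this size in sparse counts are given as values only.

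Genes of red blood cells were set beside the vessel genes as well. Over spots, the endothelial genes correlated with 8 erythroid genes at 0.0756, and over the 46 and 50 strips at 0.327 and 0.0767. With the choroid plexus list they correlated at 0.419 and 0.0746 over the 46 and 50 strips. The peripheral, fenestrated or lymphatic list gave 0.358 and 0.109, and the ligands and co-receptors -0.223 and 0.0201. Over strips the erythroid genes thus did not stand apart from other lists. Over spots their value was the highest of the lists, beside 0.0660 for the longer mural list and 0.0526 for choroid plexus, all of them weak. In muscle-rich spots the erythroid sum had a ratio of 1.19 (1.16 to 1.22).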
